A study of Homo sapiens with 4 samples.

Results

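The BCL2 family decides at the mitochondrion whether a stressed cell dies, and 10 of its genes were followed here through cells given the GLI inhibitor GANT61. They were 4 pro-survival members (BCL2, BCL2L1, BCL2L2 and MCL1) and 6 pro-death members (BAX, BAK1, BID, BCL2L11, BBC3 and PMAIP1). The members were chosen by name, as every probe of the array to which the deposited table gives one of these gene names, which made 22 probes of 47229 and 10 genes of 30562.

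The pro-survival proteins hold their relatives in check by binding them. BAX and BAK1 are the effectors, which open the outer mitochondrial membrane and let cytochrome c out, after which caspases are activated. BID, BCL2L11 (the protein BIM), BBC3 (PUMA) and PMAIP1 (NOXA) share only the BH3 domain with the others and act upstream, by occupying the pro-survival proteins or by activating the effectors. The family is controlled at several levels, including transcription, splicing, protein turnover and, for BID, cleavage by the protease CASP8. The arrays measured RNA alone.

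ES2 and H4, both established human cancer cell lines, were each given either DMSO, the solvent, or GANT61, a small molecule that keeps GLI1 and GLI2, the last transcription factors of Hedgehog signalling, off DNA. The 4 groups were ES2 with DMSO, ES2 with 20 µM GANT61, H4 with DMSO and H4 with 20 µM GANT61, all at 48 h, with 1 Illumina BeadChip array each. Ratios within a line therefore have no replicate, no error and no p-value, and nothing in the labels tells how many cultures an array stands for. The labels give one ovarian source to both lines, although H4 is commonly described as a neuroglioma. Both arrays of a line detected 4 of 10 genes listed as Müllerian and epithelial in ES2 (ARID1A, KRT7, KRT8 and KRT18). In H4, 2 were detected on both arrays (ARID1A and KRT18). Apart from ARID1A these were keratins, and PAX8, WT1, MUC16, EPCAM and CDH1 were among the listed genes detected on none. Of 7 glial and neural markers, H4 had 4 detected on both arrays (OLIG2, SLC1A3, NCAM1 and TUBB3) and ES2 had 2 of the same genes (SLC1A3 and TUBB3), and GFAP and S100B were detected on none.

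The promoters of the members were read for letters bound by the factors in question, GLI first, since GANT61 blocks it. RefSeq windows from 250 bases before to 50 bases after a gene's start were at hand for 8 of the 10 members, in 13 windows. Both strands were searched for the GLI core GACCACCCN, the cyclic AMP response element TNACGTCA, the E-box CACGTG bound by MYC, and the p53 full site (both half-sites with up to 13 bases between them). No match of one motif overlapped a match of another. The 3 windows below are shown because BID and BCL2L1 had the largest ratios of the family in H4 and because BAX held the most matches, with matches in capitals. Of the 5 windows of BID, the one with the GLI core is given, and of the 2 of BCL2L1, neither with a match, the first listed.
BID promoter, chr22:17774616-17774915, minus strand, GRCh38.p14: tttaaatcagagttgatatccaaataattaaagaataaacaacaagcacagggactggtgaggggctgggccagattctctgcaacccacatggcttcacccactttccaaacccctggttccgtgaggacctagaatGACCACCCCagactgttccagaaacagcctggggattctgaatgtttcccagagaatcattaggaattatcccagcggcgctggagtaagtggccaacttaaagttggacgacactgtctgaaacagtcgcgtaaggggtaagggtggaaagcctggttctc
BCL2L1 promoter, chr20:31723914-31724213, minus strand, GRCh38.p14: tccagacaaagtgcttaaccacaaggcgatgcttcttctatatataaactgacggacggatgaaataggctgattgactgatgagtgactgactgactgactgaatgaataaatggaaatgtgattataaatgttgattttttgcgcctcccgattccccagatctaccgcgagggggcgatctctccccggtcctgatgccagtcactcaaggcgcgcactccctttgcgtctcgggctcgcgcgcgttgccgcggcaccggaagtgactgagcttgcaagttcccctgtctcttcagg
BAX promoter, chr19:48954625-48954924, plus strand, GRCh38.p14: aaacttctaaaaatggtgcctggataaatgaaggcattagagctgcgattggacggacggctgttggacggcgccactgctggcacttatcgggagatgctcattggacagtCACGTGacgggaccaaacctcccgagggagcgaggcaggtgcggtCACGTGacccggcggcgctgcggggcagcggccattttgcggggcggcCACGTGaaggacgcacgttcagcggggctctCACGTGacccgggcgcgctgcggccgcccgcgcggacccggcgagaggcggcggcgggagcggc

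The GLI core was found in 1 of the 13 windows, and 0.971% of all 35116 windows held one. The match was in 1 of the BID windows, which have different starts. It began 112 bases before the start of transcription on which that window was set (position -112). It lies in the BID window given above, and the other BID windows lacked those letters. BAX held 4 E-boxes, a number reached in 0.0142% of all windows, where 7.26% held at least 1. E-boxes were also present in the window of BBC3 and in 2 of the other BID windows, which overlap and hold the same E-box. No window of a member held the response element (3.01% of all windows) or the p53 full site (0.0285%). A match of letters is not a bound site, and the letters that were not found may lie outside these windows.

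Detection limited what could be followed. With a detection p under 0.01, 13 of the 22 probes were detected on both ES2 arrays, 2 on 1 and 7 on none, and in H4 14 were detected on both and 8 on none. Every member except BAK1 had a probe detected in ES2, and every member except BAK1 and BCL2L11 had one in H4. BAK1, the partner of BAX in opening the membrane, has a single probe, which was detected on no array, so no ratio is given for it. BCL2L11 was detected on both ES2 arrays by 1 of its 3 probes and on no H4 array. All values below are normalized intensities after background correction, and a gene is represented by its brightest probe unless another is named.

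**Figure D1:**
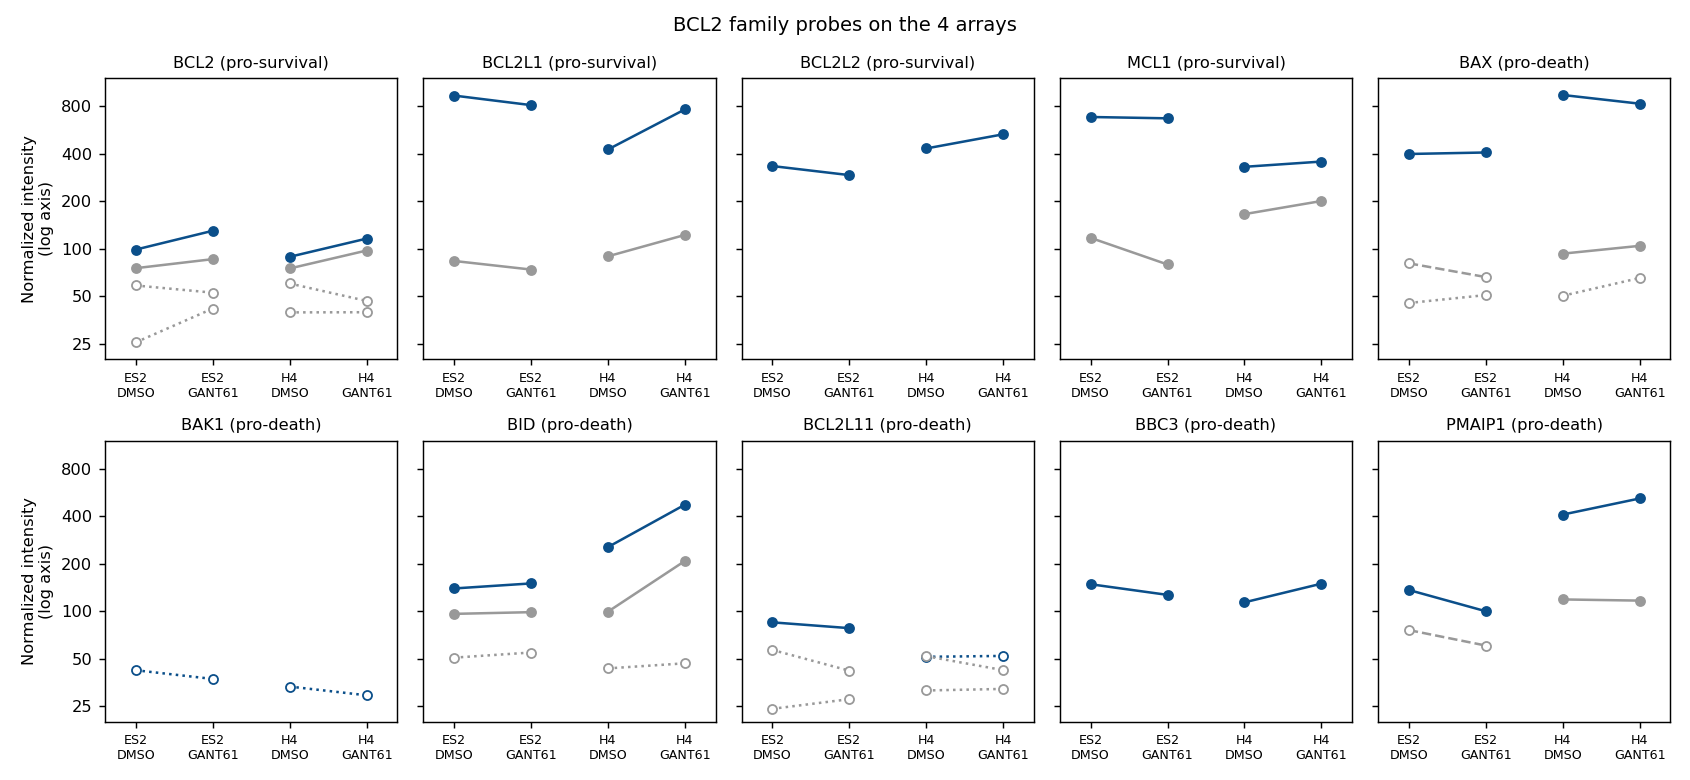
Normalized intensity (log axis) of each of the 22 probes on the 4 arrays, 1 panel per gene, with lines joining the DMSO and GANT61 arrays of a line. Blue marks the brightest probe of a gene and grey the others, and filled points with solid lines mark detection on both of the arrays joined, dashed lines on 1 and dotted lines on none. The filled lines of BCL2L1 and BID climb in H4 and stay nearly flat in ES2.

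BID and BCL2L1, a killer and a guardian, were higher together in H4 cells given GANT61. BID, which carries the death receptor signal to the mitochondrion, read 256 with DMSO and 475 with GANT61 in H4, against 140 and 150 in ES2. The H4 GANT61 array was thus the highest of the 4, and the ratio of GANT61 over DMSO was 1.86-fold in H4 and 1.08-fold in ES2. A second BID probe (ILMN_2372413) read 99.6 and 209 in H4, 2.10-fold higher, and 96.5 and 98.9 in ES2. The third BID probe was detected on no array. BCL2L1, the gene of BCL-XL, read 426 with DMSO and 764 with GANT61 in H4, 1.80-fold higher, whereas in ES2 it read 935 and 813, 1.15-fold lower. GANT61 went with a higher signal in one line and a slightly lower one in the other. The ES2 log2 ratio of BCL2L1 was -0.20, and 29.3% of ES2 genes had one at least as large in size. A second BCL2L1 probe (ILMN_1742410) had the same directions, 89.5 and 122 in H4 (1.37-fold higher) and 83.7 and 73.8 in ES2 (1.13-fold lower). In bulk samples such as these, fewer cells with a transcript and less of it per cell cannot be told apart.

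BID and BCL2L1 were the 2 members past 1.5-fold in H4, both higher, of 8 measured. Among all 11546 genes measured in H4, 11.3% exceeded 1.5-fold upward and 12.5% downward, and no member reached 2-fold by its brightest probe, against 4.07% of genes higher and 3.51% lower. A higher log2 ratio than that of BID was found for 5.11% of these genes and a higher one than that of BCL2L1 for 5.65%. The log2 ratio of BID exceeded that of BCL2L1 by 0.05. The SD of the difference between 2 probes of a gene in H4 was larger, 0.31 on the log2 scale over 1993 genes. That SD does not measure the error of a difference between 2 genes. On the authors' scale, without background correction, the log2 ratio of BID was 0.72 and that of BCL2L1 0.75.

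**Figure D2:**
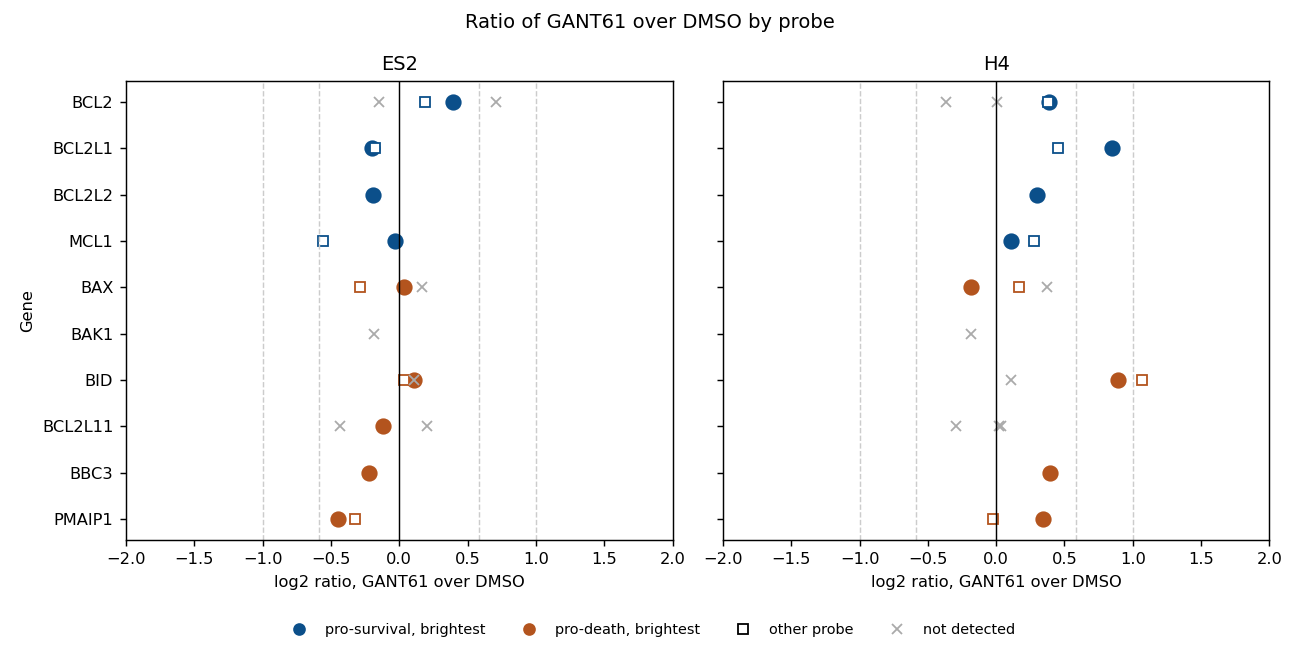
log2 ratio of GANT61 over DMSO of each member's probes in ES2 (left) and H4 (right), 1 point per probe and 1 row per gene. Filled circles are brightest probes, open squares other probes detected on at least 1 array of the line and crosses probes detected on none, with dashed lines at 1.5-fold and 2-fold. The detected probes of BID and BCL2L1 lie to the right in H4, and those of BAX lie on both sides of 0 in both lines.

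Among the guardians, all 4 were higher in H4 and 3 of 4 were lower in ES2, with median log2 ratios of 0.34 and -0.11. The median over all genes was -0.05 in H4 and 0.00 in ES2, and 45.4% and 50.6% of genes were higher. BCL2, the founding member, was the one guardian higher in both lines. It read 98.8 and 130 in ES2 and 88.9 and 116 in H4, a ratio of 1.32-fold in ES2 and 1.30-fold in H4. A second BCL2 probe (ILMN_1801119) was 1.14-fold and 1.30-fold higher, and the other 2 probes were detected on no array. Both detected probes were dim, the second at 75.3 in ES2 and 75.0 in H4 with DMSO. The lowest signal of any gene that both arrays of a line detected was 67.8 in ES2 and 72.9 in H4. In ES2, whose ratios were narrow, 2.27% of 12213 genes had a higher ratio than BCL2, and in H4 19.3% did. The H4 log2 ratio of BCL2 was 0.38, and 0.21 on the authors' scale.

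BCL2L2, the gene of BCL-W, has 1 probe, which read 334 and 293 in ES2 (1.14-fold lower) and 432 and 531 in H4 (1.23-fold higher). MCL1, a short-lived guardian that binds NOXA and BIM, read 684 and 670 in ES2 and 330 and 357 in H4 by its brightest probe, 1.02-fold lower and 1.08-fold higher. Its second probe (ILMN_1756806) read 117 and 79.5 in ES2, 1.48-fold lower, and 166 and 201 in H4, 1.21-fold higher. The MCL1 probes thus shared their directions but in ES2 differed in size, by more than the SD of such differences there (0.20 over 2545 genes). The mean of its detected probes gave a log2 ratio of -0.29 in ES2 in place of -0.03. Which transcript each probe reads was not examined here.

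Among the killers, BAX gave no direction that its probes shared. The brightest probe read 398 and 407 in ES2 (1.02-fold higher) and 943 and 830 in H4 (1.14-fold lower). A second (ILMN_1683300), detected on 1 ES2 array, was at least 1.19-fold lower in ES2, the dimmer array being set to the lowest signal of any gene that both arrays detected, and read 93.1 and 104 in H4, 1.12-fold higher. The signal of MYC was 1.93-fold higher in H4 (263 and 506) and 1.13-fold lower in ES2 (1924 and 1708). Whether MYC acts on BAX through the 4 E-boxes of the window above was not tested.

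The BH3-only genes other than BID stayed below 1.5-fold wherever they were measured. BBC3, the gene of PUMA, read 149 and 127 in ES2 (1.17-fold lower) and 114 and 150 in H4 (1.31-fold higher) by its single probe. PMAIP1, the gene of NOXA, which binds MCL1, read 137 and 100 in ES2, 1.36-fold lower, and 1.35% of ES2 genes had a lower ratio. A second PMAIP1 probe (ILMN_1689525), detected on 1 ES2 array, was at least 1.12-fold lower there. In H4 the brightest PMAIP1 probe read 411 and 520, 1.27-fold higher, but the second read 119 and 117, so that no direction was shared. BCL2L11, the gene of BIM, read 85.3 and 78.4 in ES2, 1.09-fold lower, and its other 2 probes were detected on no array.

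Guardians and killers were compared by their medians, a comparison with no error and no test. The 4 killers measured in H4 had a median log2 ratio of 0.37, with 3 higher and 1 lower, and the 5 measured in ES2 had -0.12, with 2 higher and 3 lower. The median of the killers minus that of the guardians was 0.03 in H4 and -0.01 in ES2, and its sign depended on the processing in both lines (-0.16 in H4 without the detection filter and 0.06 in ES2 with the mean of detected probes). No member reached 1.5-fold in ES2 by its brightest probe, where 0.647% of all genes did in either direction. Where both arrays of a line detected 2 probes of a member, 4 of 4 members had the same sign by both probes in ES2 and 4 of 6 in H4.

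**Figure D3:**
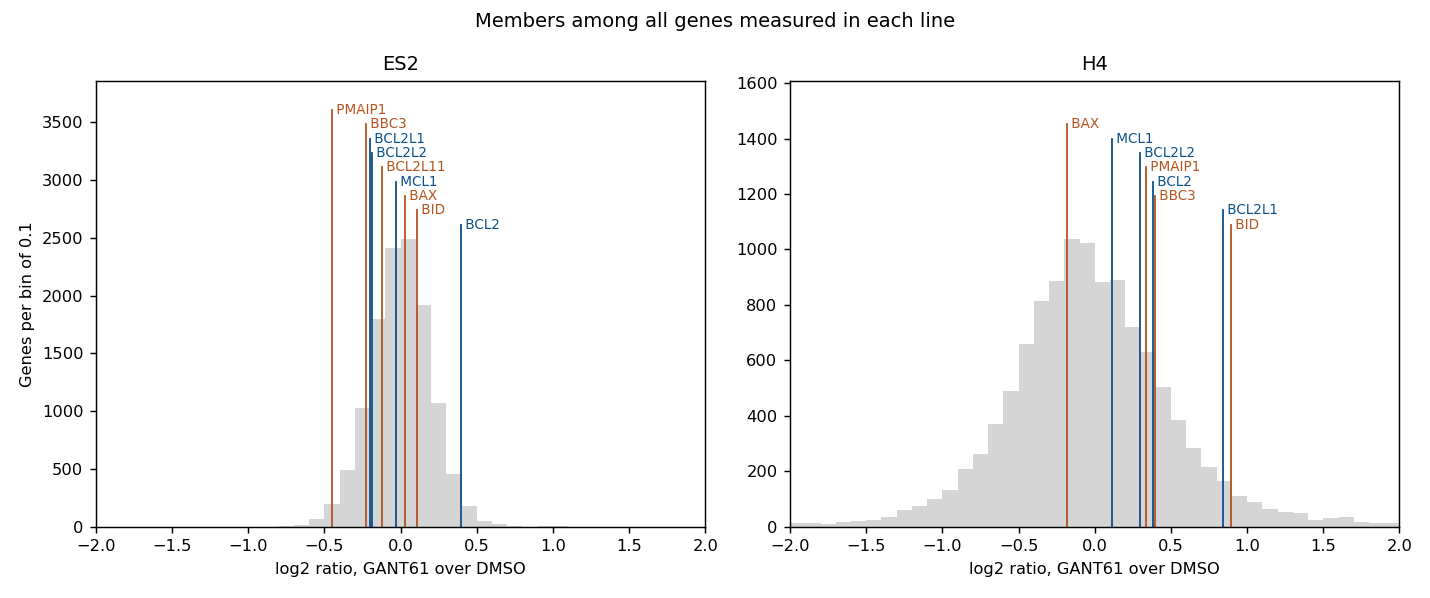
Number of genes (vertical axis) by log2 ratio of GANT61 over DMSO in bins of 0.1 for all genes measured in ES2 (left) and H4 (right), with ratios beyond the axis not drawn. Vertical lines mark the members by their brightest probe, blue for guardians and orange for killers, and their heights only separate the names. In H4, BID and BCL2L1 stand to the right of the other 6 members, and in ES2 BCL2 and PMAIP1 stand at opposite ends.

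A treatment effect common to ES2 and H4 was estimated by limma, with the lines as replicates of the treatment and 1 residual degree of freedom. Of 10229 genes, 16 had an adjusted p under 0.05 (0.156%), and none of the 8 members tested was among them. None of the 8 had an unadjusted p under 0.05 either, as 624 of all genes did. BID, higher in 2 of 2 lines, had a shared log2 change of 0.50 with a standard error of 0.27 (limma adjusted p = 0.927), and BCL2, also higher in 2 of 2 lines, had 0.39 with a standard error of 0.26 (limma adjusted p = 1). The other 6 members tested each had a limma adjusted p of 1. A difference between the lines in a member's response has no test, since each line has 1 array per treatment.

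Between the lines given DMSO, 5 of 8 members differed by more than 1.5-fold at their brightest probe, though the probes of a gene often disagreed. The authors normalized the lines separately, so ratios of ES2 over H4 rest on the quantile normalization over the 4 arrays. By the brightest probe, BCL2L1 was 2.20-fold and MCL1 2.07-fold higher in ES2 with DMSO, and PMAIP1 was 3.0-fold, BAX 2.37-fold and BID 1.83-fold lower. Of the 8 members measured in both lines, 2 were past 1.5-fold higher in ES2 and 3 past it lower, where 18.8% and 18.9% of 10229 genes were. The second probes gave other sizes and, for both guardians, the other direction. Several were dim. With DMSO they read 83.7 in ES2 and 89.5 in H4 for BCL2L1, 80.8 and 93.1 for BAX, and 96.5 and 99.6 for BID. Those of MCL1 read 117 and 166, and those of PMAIP1 76.2 and 119. The lowest signal of any gene that both arrays of a line detected was 67.8 in ES2 and 72.9 in H4. The background offset pulls ratios of dim probes toward 0. They had log2 ratios of ES2 over H4 of -0.10 for BCL2L1, -0.50 for MCL1, -0.20 for BAX, -0.05 for BID and -0.65 for PMAIP1, and those of BAX and PMAIP1 were detected on 1 of the ES2 arrays. Of the 4 members with 2 probes detected on all 4 arrays, 2 had the same sign by both. Over all 1825 such genes the SD of the difference between 2 probes was 0.57.

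BCL2, BCL2L2 and BBC3 lay closer between the lines, with log2 ratios of 0.15, -0.37 and 0.38. The sign of BCL2 turned on the authors' scale (-0.17), and that of BCL2L2 turned with median scaling (0.39), which moved the median of all genes by 0.64. Relative to that median, BCL2L1 and MCL1 kept the higher and BAX, BID and PMAIP1 the lower side in ES2 under all 7 alternatives. The sizes did not hold: with the mean of detected probes, 2 of the 8 members (BAX and PMAIP1) differed by more than 1.5-fold in place of 5, and the log2 ratio was 0.52 for BCL2L1, 0.27 for MCL1 and -0.46 for BID. BCL2L11 was at least 1.17-fold higher in ES2 by the probe detected there, its H4 signal being set to the lowest of any gene that both H4 arrays detected.

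**Figure D4:**
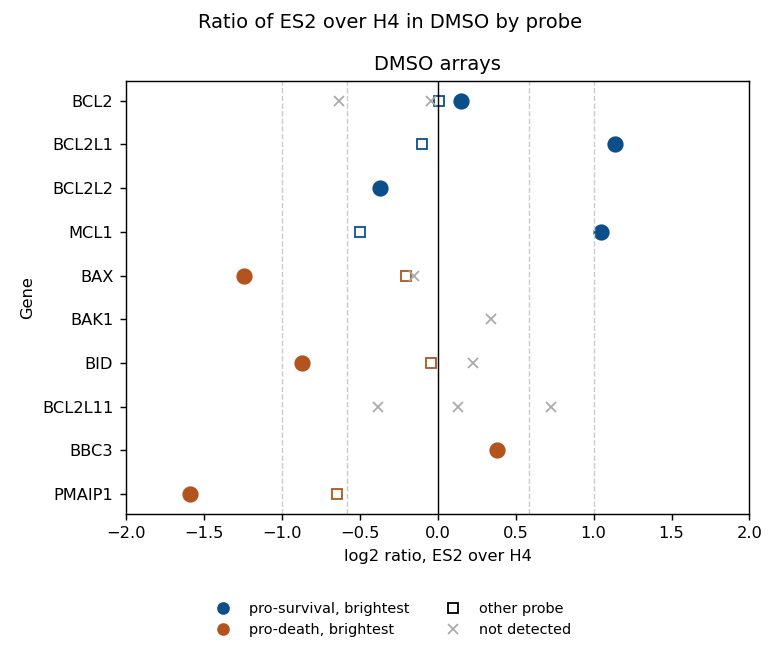
log2 ratio of ES2 over H4 on the DMSO arrays for each member's probes, with 1 row per gene, symbols as for the ratios of GANT61 over DMSO, and crosses for probes detected on no array of at least 1 line. The brightest probes of BCL2L1 and MCL1 lie at 1.14 and 1.05 and those of BAX and PMAIP1 at -1.24 and -1.59, with their open squares nearer to or beyond 0.

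Relatives and partners of the members were read from lists of the same pathway. Of 16 other BCL2 family genes, 10 were measured in H4, with 4 higher and 6 lower and a median log2 ratio of -0.18. Only 8 of the 10 were detected on both H4 arrays. BCL2L14 (-0.33) and BMF (-0.50) were detected on 1, and counted as measured through the brighter DMSO array. That count and median therefore lean lower in H4 through the detection filter. BNIP3, a mitophagy receptor with a BH3-like stretch, was 2.38-fold higher there, from 3468 to 8261, and BCL2L12 1.78-fold lower, from 1268 to 712. In ES2, 8 were measured and none reached 1.5-fold. Downstream, the 12 caspase and apoptosome genes had a median of -0.20 in H4, where 1 reached 1.5-fold, the executioner CASP6 (1.76-fold lower, from 375 to 213). Both H4 arrays detected 9 of the 12. APAF1, CASP9 and CASP8 were detected on 1 and counted as measured through the brighter DMSO array, so this median too leans lower through the filter.

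Of the caspase inhibitors and their antagonists, 6 of 7 were measured in H4. BIRC5 (survivin), which also serves the mitotic spindle, was 2.41-fold lower, the mitochondrial protease HTRA2 1.80-fold lower and BIRC3 1.51-fold higher. No gene of the mitochondrial docking list (6 measured, median 0.01) or of the list controlling MCL1 and BIM protein (8 measured, median 0.16) reached 1.5-fold in H4. In ES2 the medians of the caspase, inhibitor, docking and protein control lists lay between -0.08 and 0.13 and none of their genes reached 1.5-fold.

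Of 12 transcription factors and regulators tied to BH3-only genes, 9 were measured in H4. There the stress factor ATF3 was 2.21-fold, MYC 1.93-fold and the pseudokinase TRIB3 1.90-fold higher, and FOXO1 1.89-fold lower. In ES2 none reached 1.5-fold and the median was -0.17. The p53 target list holds BAX, BBC3 and PMAIP1. Without them, 8 of 10 measured p53 targets were at least 1.5-fold higher in H4, among them CDKN1A (2.53-fold), TNFRSF10B, a death receptor upstream of BID (2.67-fold), PHLDA3 (2.22-fold) and AEN (2.10-fold), and the median log2 ratio was 0.94. The 3 members on that list had -0.18 (BAX), 0.39 (BBC3) and 0.34 (PMAIP1), below 1.5-fold. In ES2 the median of the 10 was -0.03, and GADD45A (1.56-fold lower) was the gene past 1.5-fold.

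The genes whose pair of ratios lay nearest to that of BID, among 8815 detected on all 4 arrays, were the ubiquitin-conjugating enzyme UBE2E2 (Euclidean distance 0.022 on the log2 scale), the kinase RIOK3 (0.024) and UAP1L1 (0.024). Their log2 ratios in H4 were 0.91, 0.87 and 0.87, against 0.89 for BID. This likeness rests on 2 ratios from 4 arrays.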

How the data were processed

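RNA was measured on Illumina Human HT expression BeadChips, 1 per line and treatment, per the labels' protocols. The authors' deposited value table holds 1 linear intensity per probe and array, whose sorted values nearly coincide within a line (median difference 0.00457% in ES2 and 0.0103% in H4), so they carry a quantile normalization within each line. The software is not given in the sources used here. A second deposited table gives, per the file headers, gene names and detection p-values. Its 4 signal columns name no treatment and were not used, and its p-values served only as the number of a line's arrays detecting a probe.

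The planned background correction was applied to the deposited intensity: normexp (offset 16), quantile normalization over the 4 arrays and log2, in R 4.3.3 with limma 3.58.1. Names were brought to current RefSeq symbols, and the brightest probe stood for a gene. A gene was measured in a line when detected on at least 1 array (p under 0.01). For a probe detected on 1 array, the brighter array was taken as the detecting one. Other backgrounds, scalings, filters and probe rules were tried. The limma fit (line as a term, eBayes with a trend, Benjamini-Hochberg over all genes) was tested on simulated data. The background offset pulls dim ratios toward 0, but the background correction as a whole widened ratios. Without it the log2 ratio of BID in H4 was 0.80 in place of 0.89, and fewer genes passed 1.5-fold in both lines. The number of arrays limits the precision. Members and lists were chosen with earlier results of these data known. From the lists, genes at least 1.5-fold different and detected on both arrays of a line were named, at most 8 per list and line. Some items of these lists are not reported here.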

Additional observations from a re-analysis of the deposited data

Results flagged for a closer look

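Of the 8 members measured in both lines, 6 had ratios of opposite sign in ES2 and H4. The share of all genes with opposite signs was not counted, so this number cannot be read as a trait of the members. Among all genes measured in a line, 50.6% were higher with GANT61 in ES2 and 45.4% in H4. The difference between the lines was not tested for any of them, since each line has 1 array per treatment. The log2 ratio in H4 minus that in ES2 was 1.05 for BCL2L1, 0.79 for PMAIP1, 0.62 for BBC3, 0.49 for BCL2L2, 0.14 for MCL1 and -0.21 for BAX. The MCL1 and BAX differences were smaller in size than the SD of the difference between 2 probes of a gene in H4 (0.31). That SD does not measure the error of a difference between lines. By their second probes, BCL2L1 and MCL1 again had opposite signs in the lines, whereas PMAIP1 was lower in both (-0.33 in ES2 and -0.02 in H4) and BAX ran the other way (-0.29 in ES2 and 0.16 in H4). With the mean of detected probes, 5 members had opposite signs, as BAX was then lower in both lines.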

How the results depend on the processing

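Under the 7 alternatives, BID and BCL2L1 stayed higher in H4 (log2 ratios 0.72 to 0.98 and 0.65 to 0.84) and PMAIP1 lower and BCL2 higher in ES2 (-0.51 to -0.34 and 0.29 to 0.46). The median of the killers ran from 0.18 (without the detection filter) to 0.37 in H4 and from -0.16 to -0.08 in ES2, and that of the guardians from 0.24 to 0.34 and from -0.19 to -0.10. The difference between them changed sign in H4 without the detection filter (-0.16) and with the mean of detected probes (-0.06), and in ES2 without background correction (0.02), with an offset of 50 (0.01) and with the mean of detected probes (0.06). No paired analysis was possible because the groups share a single replicate number, other than the pairing by cell line that the limma fit already holds.

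Counts over all genes moved more, and the cause was not tested. Without background correction, 16 and 9 ES2 genes were at least 1.5-fold higher and lower (42 and 37 as reported), 1 and 1 at least 2-fold (5 and 4), and 954 and 239 H4 genes were lower at 1.5-fold and 2-fold (1446 and 405). With an offset of 50, ES2 had 18 and 12 at 1.5-fold and 1 and 1 at 2-fold, and 248 H4 genes were lower at 2-fold. Median scaling gave 77 and 75 at 1.5-fold in ES2, and a detection p under 0.05 gave 79 and 74. The authors' scale gave 23 and 20 at 1.5-fold and 2 and 2 at 2-fold in ES2, and 754 and 715 at 1.5-fold and 256 and 181 at 2-fold in H4. Without the detection filter, ES2 had 643 and 630 at 1.5-fold and 52 and 42 at 2-fold. The 16 limma calls became 0 under 7 of the 8 alternatives to that fit, all but a detection p under 0.05 (12 calls), with 456 to 1582 genes at an unadjusted p under 0.05 where there were none.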
